A study of Mus musculus with 9 samples.

Results

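FOXO1 and FOXO3, the forkhead transcription factors that hold lymphocytes in a resting state, were followed together with 6 genes tied to them or to quiescence, Klhl24, Irs2, Pik3ip1, Txnip, Tob1 and Btg1. Members were all probe sets whose array annotation named 1 of these 8 genes, which gave 22 probe sets of the 45101 on the array. 1 further probe set carried the symbols of Foxo3 and of a second gene, read 0.30 to 0.70 log2 on the 9 arrays and was not used. The cells were day 6 cytotoxic T lymphocytes (CTL) grown from spleens of wild type mice carrying the P14 T cell receptor transgene, so that most of their CD8 T cells share 1 specificity. Splenocytes were stimulated with the peptide antigen, IL-2 and IL-12 for 48 h and grown on for another 96 h. KU-0063794 at 1 uM, rapamycin at 20 nM or the solvent DMSO was present for the final 48 h. Each treatment had 3 arrays, and the 3 cultures that share a replicate number came from 1 spleen, so spleen 1 gave a KU-0063794, a rapamycin and a DMSO culture.

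FOXO proteins are controlled mainly by their location. The kinase AKT, which mTOR complex 2 phosphorylates, phosphorylates FOXO in turn, and 14-3-3 proteins then keep it out of the nucleus; when AKT is less active, FOXO returns to the nucleus and switches on genes of arrest, homing and insulin signalling. Rapamycin acts mainly on mTOR complex 1, whereas KU-0063794 blocks the mTOR kinase in both complexes. The comparison of the drugs therefore includes direct inhibition of complex 2. That inhibition cannot be told apart here from other differences between the drugs, such as how far each inhibits complex 1. FOXO protein and its phosphorylation were not measured here. The values are deposited log2 signals per probe set, in which a difference of 1 is a doubling, and a probe set is called when its adjusted p in limma, over all 22947 probe sets tested, is under 0.05.

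Klhl24 was the member that rose with rapamycin, Tob1 fell with each drug, and Btg1 fell with each drug when the spleen was taken as a fixed block. The block below is this fixed one unless called random. Intervals are from the fit without a block unless stated, and are not adjusted for the number of probe sets tested. No probe set of Foxo1, Foxo3, Irs2, Pik3ip1 or Txnip was called in any comparison, with or without that block. Of the 22 probe sets, 17 passed a filter on low signal and were tested. For KU-0063794 against DMSO 0 of the 17 rose and 1 fell, where 2.7% of all probe sets tested were called, 1.45% higher and 1.25% lower. For rapamycin against DMSO 1 rose and 1 fell, where 3.04% of all were called, 1.9% higher and 1.14% lower. In the fit with a spleen block, 1 rose and 4 fell with KU-0063794, against 9.13% of all probe sets (4.64% higher and 4.48% lower). With the block 1 rose and 3 fell with rapamycin, against 8.75% of all (4.91% higher and 3.85% lower). For each drug the probe set that rose with the block was of Klhl24, and those that fell were of Tob1 and Btg1 only. Probe sets of 1 gene are not independent, so these counts are not counts of genes. The arrays of the 2 groups did not overlap for 1 higher and 6 lower member probe sets with KU-0063794 against DMSO (17.8% of all probe sets, 9.58% higher and 8.26% lower). For rapamycin against DMSO this held for 2 higher and 2 lower ones (17.1% of all, 8.82% higher and 8.27% lower), and for KU-0063794 against rapamycin for 0 higher and 2 lower ones (7.63% of all, 4.14% higher and 3.49% lower). The 6 lower ones with KU-0063794 against DMSO belonged to Foxo3, Tob1 and Btg1 only. Between the drugs limma called 0 of the 17, and 0% of all probe sets were called with or without the block. An unadjusted p under 0.05 was found for 2 of the 17 and 1043 of the 22947, and with the block for 4 and 2069. The median log2 fold change of the 17 was -0.21 for KU-0063794 (0.01 over all probe sets tested) and -0.00 for rapamycin (0.00 over all). For KU-0063794 against rapamycin this median was -0.185 (0.01 over all). These medians are over probe sets, so genes with several weigh more, and some of the 17 lay below background.

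**Figure D1:**
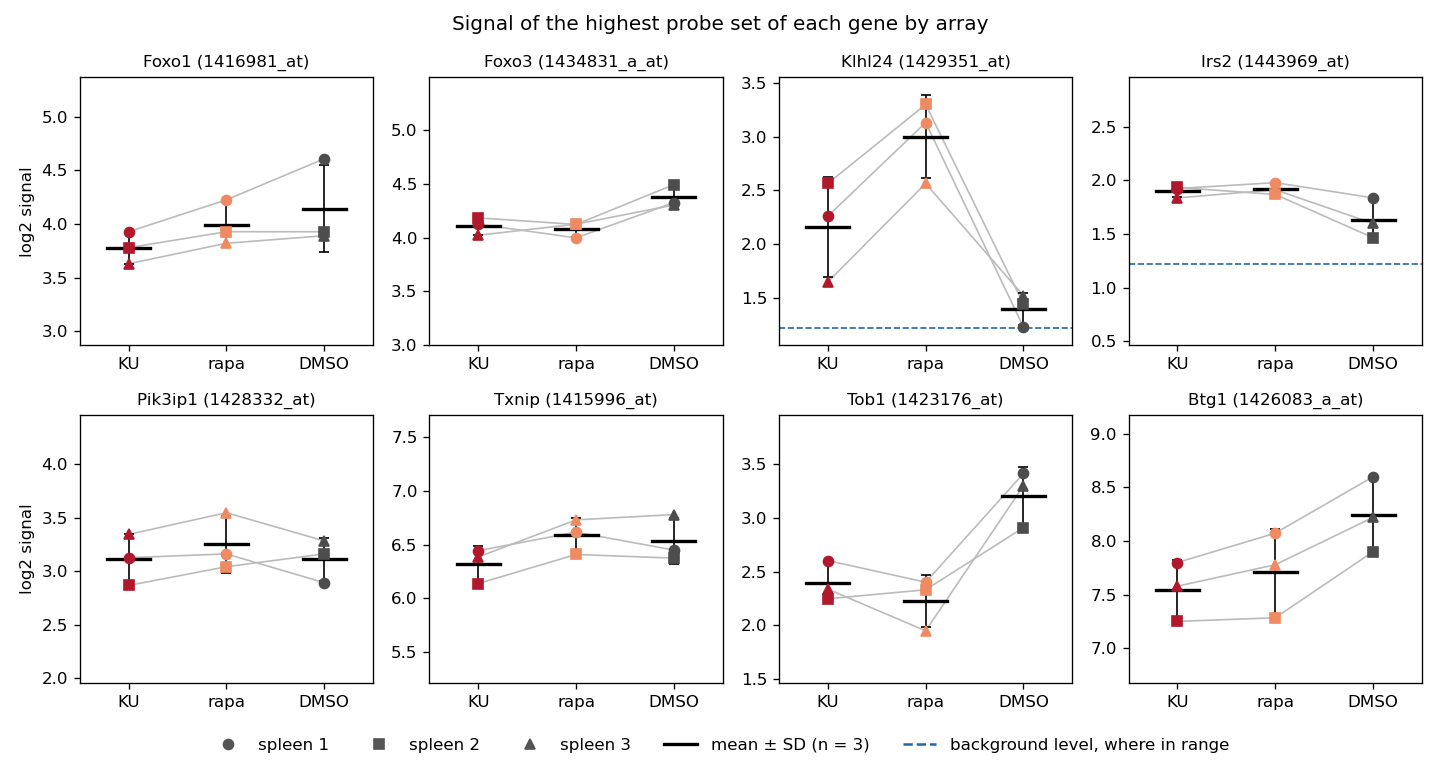
Log2 signal of the highest probe set of each gene on the 9 arrays, with KU-0063794 (KU), rapamycin (rapa) and DMSO from left to right. Each symbol is 1 array, grey lines join cultures of 1 spleen, black bars are mean ± SD (n = 3), every axis spans 2.5 log2 units, and the dashed line is the background level of 1.22 log2; Klhl24 is highest with rapamycin in all 3 spleens, and Tob1 and Btg1 are highest with DMSO in all 3.

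The normalization of the arrays is not known, so the deposited values cannot show whether total RNA differed between treatments. Array medians were 0.47 to 0.53 log2, under the background level of 1.22 log2. This level is the 95th percentile of 17 genes restricted to other tissues. Per array, 31.8% to 32.4% of probe sets exceeded it. The labelled cell type was checked against its markers: 9 of 9 annotated CD8 T cell markers lay above that level, against 2 of 6 for B cells, 1 of 4 for CD4 T cells, 1 of 2 for NK cells, 1 of 4 among erythroid and stromal genes and 1 of 9 for myeloid cells. Ighm, the immunoglobulin heavy chain gene, had means of 8.30 log2 with KU-0063794, 8.31 with rapamycin and 8.03 with DMSO. It varied widely between arrays of 1 treatment. The B cell genes, mostly Ighm, summed in linear signal to 181.9 to 596.4 with KU-0063794, 157.7 to 638.7 with rapamycin and 132.9 to 634 with DMSO. Cd79b, Zbtb7b, Klre1, Csf1r and Pecam1 were the others above background, while Cd79a, Ms4a1, Pax5, Cd4, Foxp3, Ncr1 and Lyz2 were below it. Summed linear signal of the CD8 T cell markers, to which Gzmb contributes most, was 6032 to 6395 with KU-0063794, 5900 to 6262 with rapamycin and 6503 to 7034 with DMSO. The median of the 9 markers went the other way, at 7.47 log2 with KU-0063794, 7.62 with rapamycin and 7.23 with DMSO. RNA integrity was gauged by how far the actin control's 3' probe set exceeded its 5' one, which was 0.65 to 0.70 log2 with KU-0063794, 0.62 to 0.72 with rapamycin and 0.49 to 0.65 with DMSO, higher with each drug in 3 of 3 spleens. The same measure for Gapdh was -0.22 to -0.03 with KU-0063794, -0.25 to -0.03 with rapamycin and -0.21 to 0.04 with DMSO, lower with each drug in 3 of 3 spleens. The part of these shifts in the results below was not tested. In such cultures fewer cells of a type and less RNA per cell cannot be told apart.

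No Foxo1 probe set passed the test. For Foxo1 the highest of 4 probe sets (1416981_at) read 3.93, 3.78 and 3.63 log2 with KU-0063794, 4.22, 3.93 and 3.82 with rapamycin, and 4.61, 3.93 and 3.89 with DMSO, in the order of spleens 1 to 3. The 3 groups overlapped, and spleen 1 was the highest in each. The log2 fold change was -0.36 for KU-0063794 (95% interval -0.79 to 0.07, adjusted p = 0.398, or 0.0760 with the block) and -0.15 for rapamycin (-0.58 to 0.28, adjusted p = 0.770). With the block the intervals were -0.61 to -0.12 for KU-0063794 and -0.40 to 0.09 for rapamycin. The next 2 Foxo1 probe sets had fold changes of -0.00 and 0.00 with KU-0063794 and of -0.00 and 0.20 with rapamycin, and the last lay below background on all 9 arrays.

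Foxo3 was lower with each drug without passing the test. Its highest probe set (1434831_a_at) read 4.13, 4.18 and 4.02 log2 with KU-0063794 and 3.998, 4.12 and 4.13 with rapamycin, against 4.33, 4.49 and 4.30 with DMSO. Neither drug group overlapped with DMSO. The log2 fold change was -0.26 for KU-0063794 (SE 0.09, adjusted p = 0.164, or 0.0744 with the block) and -0.29 for rapamycin (SE 0.09, adjusted p = 0.126, or 0.0549 with the block). The other Foxo3 probe set above background gave -0.44 and -0.25 (adjusted p = 0.120 and 0.390), and the third read 0.25 to 0.34 log2, below the filter. Between the drugs the highest probe set differed by 0.03 (95% interval -0.17 to 0.23).

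Klhl24, which encodes a substrate adaptor of the cullin 3 ubiquitin ligase, rose with rapamycin. Probe set 1429351_at read 2.26, 2.56 and 1.65 log2 with KU-0063794 and 3.13, 3.30 and 2.56 with rapamycin, against 1.23, 1.44 and 1.52 with DMSO. All 3 rapamycin arrays lay above every DMSO array, and the KU-0063794 arrays lay between, the one from spleen 3 close to its DMSO partner. With rapamycin it rose by 1.60 (SE 0.24, 95% interval 1.06 to 2.15, adjusted p = 0.0134, or 0.00365 with the block), a 3.04-fold difference. The differences within spleens 1 to 3 were 1.91, 1.86 and 1.05. DMSO values sat just above the background level, so the size of the rise is uncertain. The call was lost without DMSO replicate 1 (adjusted p = 0.0596) or rapamycin replicate 1 (0.0551).

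For KU-0063794 the Klhl24 log2 fold change was 0.76 (95% interval 0.22 to 1.31, adjusted p = 0.148), past the test with the fixed block only (adjusted p = 0.0421) and not with a random block (0.0599). The spleens gave 1.03, 1.12 and 0.13, higher in 3 of 3. Set against rapamycin directly, KU-0063794 was lower in 3 of 3 spleens, by -0.87, -0.74 and -0.92. This mean difference of -0.84 (95% interval -1.39 to -0.30) had an unadjusted p of 0.00645 in limma and did not pass over all probe sets (adjusted p = 0.977, or 0.364 with the block). The highest KU-0063794 value and the lowest rapamycin value were the same, 2.56 log2. The part of mTOR complex 2 in this uncalled Klhl24 difference between the drugs was not tested. Of the other 4 Klhl24 probe sets, 1428651_at was above background on 1 of 3 KU-0063794, 2 of 3 rapamycin and 0 of 3 DMSO arrays (means 1.31, 1.45 and 1.07 log2), and the other 3 were below the filter. The rise therefore rests on 1 probe set.

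Irs2 encodes the adaptor that links insulin and interleukin 4 receptors to PI3K, and is a FOXO target in liver. Its probe set (1443969_at) read 1.92, 1.93 and 1.84 log2 with KU-0063794 and 1.98, 1.87 and 1.91 with rapamycin, against 1.84, 1.46 and 1.60 with DMSO. The rapamycin group lay above DMSO without overlap, and the KU-0063794 group touched it. The log2 fold change was 0.26 for KU-0063794 (SE 0.10, adjusted p = 0.231) and 0.29 for rapamycin (SE 0.10, adjusted p = 0.196), neither past the test with the block (0.111 and 0.0902). The drugs differed by -0.02 (95% interval -0.25 to 0.21).

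Pik3ip1, a membrane protein that restrains PI3K in T cells, showed no called difference. Probe set 1428332_at read 3.13, 2.87 and 3.34 log2 with KU-0063794, 3.16, 3.04 and 3.55 with rapamycin, and 2.89, 3.16 and 3.28 with DMSO, and all groups overlapped. Its log2 fold change was -0.00 for KU-0063794 (95% interval -0.37 to 0.37) and 0.14 for rapamycin (-0.24 to 0.51). The second probe set stayed below background on 7 of 9 arrays, with rapamycin replicate 3 at 2.03 log2 as its highest value.

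Txnip, which binds thioredoxin and restrains glucose uptake, is induced by the glucose sensor MondoA and its partner Mlx. Probe set 1415996_at read 6.44, 6.14 and 6.39 log2 with KU-0063794, 6.62, 6.41 and 6.73 with rapamycin, and 6.45, 6.38 and 6.78 with DMSO. Groups overlapped in every comparison. The log2 fold change was -0.21 for KU-0063794 (95% interval -0.52 to 0.09, adjusted p = 0.503) and 0.05 for rapamycin (-0.25 to 0.36, adjusted p = 0.903). With the block the intervals were -0.41 to -0.01 for KU-0063794 (adjusted p = 0.189) and -0.15 to 0.25 for rapamycin (adjusted p = 0.789). KU-0063794 was below rapamycin in 3 of 3 spleens, by -0.17, -0.27 and -0.35, a mean of -0.26 that was not called (95% interval -0.57 to 0.04, adjusted p = 0.977, or 0.450 with the block). The interval of this mean was -0.46 to -0.06 with the block. The second Txnip probe set gave the same mean difference of -0.26 with a wider interval (-0.87 to 0.35, or -0.61 to 0.09 with the block).

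TOB1 and BTG1 belong to the BTG/TOB family of antiproliferative proteins, which recruit the CCR4-NOT deadenylase to messages and are known for keeping T cells quiescent. Tob1 fell with each drug. Probe set 1423176_at read 2.60, 2.25 and 2.34 log2 with KU-0063794 and 2.40, 2.33 and 1.95 with rapamycin, against 3.42, 2.91 and 3.30 with DMSO. Every drug array lay below every DMSO array. Tob1 fell by 0.81 with KU-0063794 (SE 0.17, 95% interval -1.18 to -0.44, adjusted p = 0.0358) and by 0.98 with rapamycin (SE 0.17, 95% interval -1.35 to -0.61, adjusted p = 0.0182). With the block the adjusted p was 0.00934 and 0.00510. Both comparisons use the same 3 DMSO arrays. The drugs differed by 0.17 (95% interval -0.20 to 0.54).

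The Tob1 calls were not stable when single arrays were left out, in fits without the spleen block. Leaving out a rapamycin array kept the KU-0063794 fold change at -0.81 and changed only the shared estimate of the spread and the adjusted p. For rapamycin the call was lost without DMSO replicate 1 (adjusted p = 0.0733), DMSO replicate 3 (0.0572), rapamycin replicate 2 (0.0505) or rapamycin replicate 3 (0.0626). For KU-0063794 it was lost without DMSO replicate 1 (0.140) or 3 (0.102), rapamycin replicate 1 (0.0517) or 2 (0.0575), and KU-0063794 replicate 1 (0.0714), 2 (0.130) or 3 (0.123). The Tob1 log2 fold change stayed between -0.96 and -0.71 for KU-0063794, and between -1.18 and -0.80 for rapamycin, over all the alternatives run. The second Tob1 probe set was below the filter.

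Btg1 fell with each drug under a fixed spleen block and was not called without a block. Probe set 1426083_a_at read 7.80, 7.25 and 7.58 log2 with KU-0063794 and 8.07, 7.28 and 7.78 with rapamycin, against 8.60, 7.90 and 8.22 with DMSO. Within each treatment spleen 1 was highest and spleen 2 lowest, and the rapamycin group overlapped with DMSO. Within spleens 1 to 3 the difference was -0.80, -0.65 and -0.64 for KU-0063794 and -0.53, -0.62 and -0.44 for rapamycin. The mean of -0.70 for KU-0063794 (adjusted p = 0.166) and of -0.53 for rapamycin (adjusted p = 0.311) passed with the block (0.00275 and 0.00738). The second probe set, 1437455_a_at, gave -0.75 and -0.48, also past the test with the block (0.00175 and 0.00812). With the spleen as a random block the KU-0063794 calls held (adjusted p = 0.0441 and 0.0261), and the rapamycin calls were lost (0.112 and 0.123). The probe sets of this pair followed each other over the 9 arrays (r = 0.96, a description over arrays that share spleens). The third, 1442018_at, was below background on 8 of 9 arrays, and no fold is given for it although it passed with the block for KU-0063794. Between the drugs 1426083_a_at differed by -0.17 and 1437455_a_at by -0.27, lower with KU-0063794 in 3 of 3 spleens each and not called (adjusted p = 0.567 and 0.392 with the block).

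**Figure D2:**
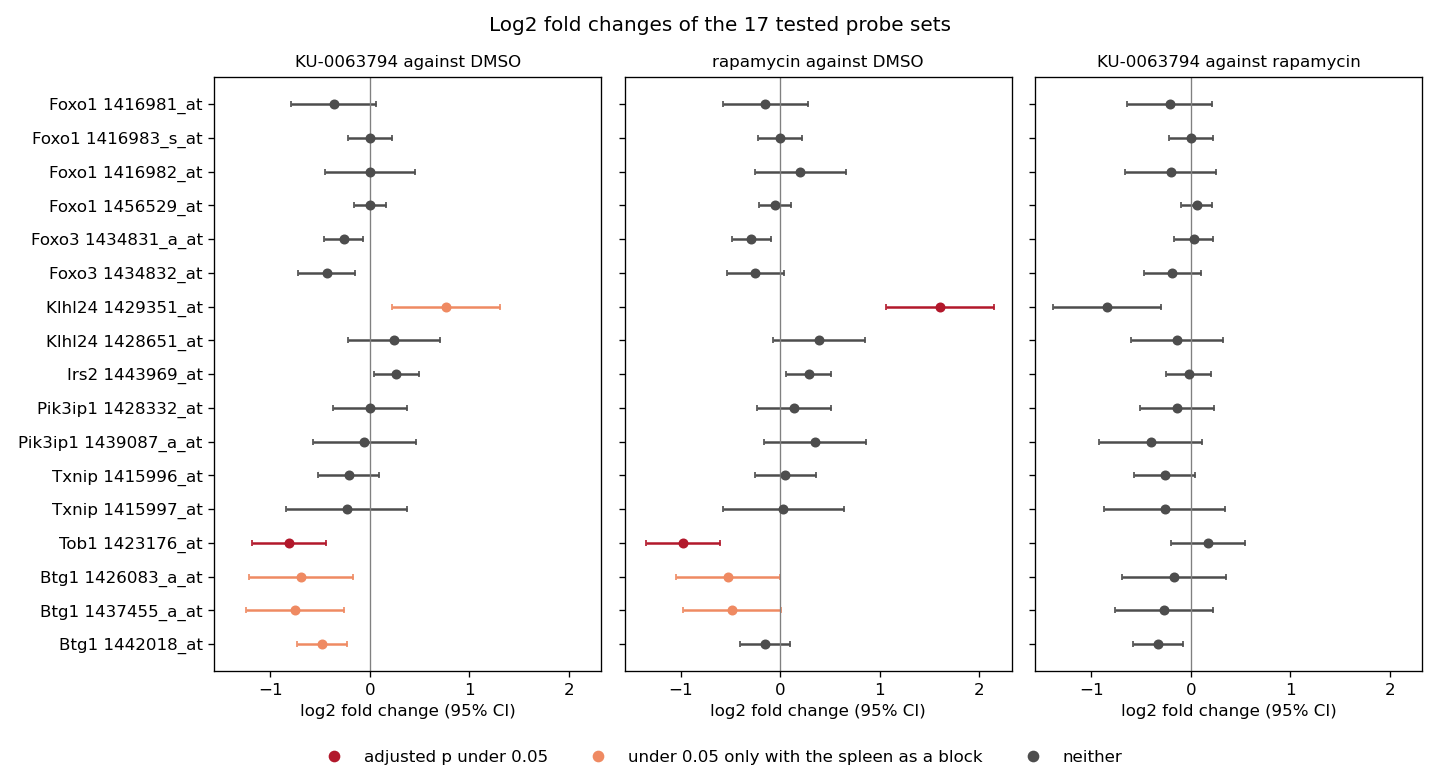
Log2 fold change with its 95% interval for the 17 tested probe sets in the 3 comparisons, from the fit without a block. Red marks an adjusted p under 0.05, orange a call with the spleen as a block only, grey neither; Klhl24 1429351_at lies right of 0 with each drug, Tob1 and the Btg1 probe sets lie left, and no point of the drug comparison is called.

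Promoters are shown for Btg1 and Tob1, the pair that fell together, and for Txnip, which was not called and carried 2 of the 3 motifs searched. The sequences are RefSeq windows of build GRCm38.p6, running 5′ to 3′ along the gene and available for 7 of the 8 genes. Capitals mark matches on either strand to the forkhead motif GTAAACA or to the carbohydrate response element motif, a spaced pair of degenerate E-boxes. The E-box CACGTG was searched as well and can overlap with the carbohydrate motif.
Btg1 promoter, chr10:96616751-96617050, + strand: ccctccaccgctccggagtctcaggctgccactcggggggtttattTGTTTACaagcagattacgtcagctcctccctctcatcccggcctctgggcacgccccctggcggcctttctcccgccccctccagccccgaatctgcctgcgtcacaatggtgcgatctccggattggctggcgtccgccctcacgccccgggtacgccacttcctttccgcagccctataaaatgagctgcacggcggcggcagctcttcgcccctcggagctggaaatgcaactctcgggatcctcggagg
Tob1 promoter, chr11:94211204-94211503, + strand: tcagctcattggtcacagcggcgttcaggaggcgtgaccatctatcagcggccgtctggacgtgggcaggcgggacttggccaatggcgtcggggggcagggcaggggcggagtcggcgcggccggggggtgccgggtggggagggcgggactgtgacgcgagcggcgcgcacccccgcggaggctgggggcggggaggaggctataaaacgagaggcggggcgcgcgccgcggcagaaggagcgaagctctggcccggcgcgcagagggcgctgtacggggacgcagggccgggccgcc
Txnip promoter, chr3:96557707-96558006, + strand: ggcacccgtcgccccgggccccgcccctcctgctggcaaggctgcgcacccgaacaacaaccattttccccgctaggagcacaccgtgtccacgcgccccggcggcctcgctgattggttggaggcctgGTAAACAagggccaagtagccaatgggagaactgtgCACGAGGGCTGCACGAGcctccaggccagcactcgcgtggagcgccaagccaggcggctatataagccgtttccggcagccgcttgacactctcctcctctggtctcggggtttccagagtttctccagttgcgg

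The forkhead motif stood in the Btg1 window, 204 bases before the annotated start, and in the Txnip window, 121 bases before it, and in no other of the 7 windows. It was found in 3.65% of 32851 windows of the same length. The carbohydrate response motif was present in Txnip alone among the 7, from 85 bases before the start, and in 0.365% of all windows. An E-box stood in the Irs2 window 44 bases before the start, as in 7.15% of all windows. The Tob1, Foxo1, Foxo3 and Pik3ip1 windows held none of the 3 motifs, which says only that these letters are not in this stretch.

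**Figure D3:**
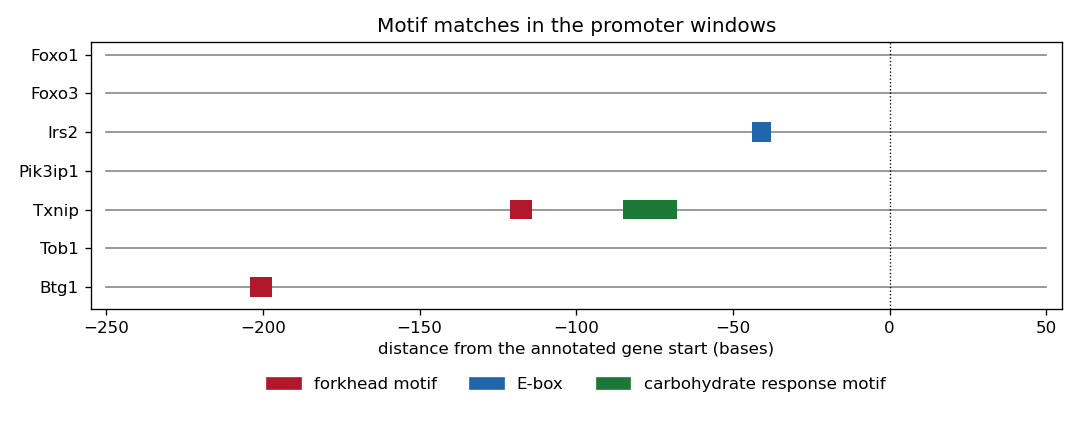
Positions of the motif matches in the promoter windows of 7 genes, in bases from the annotated gene start (dotted line), each grey line being 1 window. Red is the forkhead motif, blue the E-box and green the carbohydrate response motif; Btg1 and Txnip hold a forkhead match and Txnip the only green one.

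Genes known as FOXO targets in T cells or other tissues moved in both directions. The list had 24 genes, of which 22 were measured and tested, 1 probe set a gene. With KU-0063794 1 rose, 2 fell and 19 did not pass (13.6% called, against 3.34% of all 13278 genes tested; list median 0.02, all genes 0.01). With rapamycin 1 rose, none fell and 21 did not pass (4.55%, against 3.71% of all genes; list median 0.14, all genes -0.00). With the block 2 rose and 3 fell with each drug (22.7% called, against 10.6% of all genes for KU-0063794 and 10.1% for rapamycin). Between the drugs 0 of the 22 and 0% of all genes were called, with or without the block. An unadjusted p under 0.05 in limma was found for 4 of the 22, and for 4.55% of all probe sets tested. KU-0063794 was higher than rapamycin for 8 of the 22.

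Ccng2, a cyclin G gene that slows the cell cycle, read 4.69, 4.58 and 4.83 log2 with KU-0063794 and 5.34, 4.83 and 5.02 with rapamycin, against 4.10, 4.01 and 3.96 with DMSO. Neither drug group overlapped with DMSO. Its log2 fold change was 0.68 for KU-0063794 (adjusted p = 0.0290) and 1.04 for rapamycin (adjusted p = 0.00834). The rapamycin call held without any single array. The KU-0063794 call was lost without DMSO replicate 1 (adjusted p = 0.0877), 2 (0.0599) or 3 (0.0856) and without KU-0063794 replicate 1 (0.0954), 2 (0.0728) or 3 (0.108). As for Klhl24, the mean was lower with KU-0063794 than with rapamycin (-0.36, adjusted p = 0.977, or 0.420 with the block), which was not called. Cited2 and Klf2 of the same list went the other way, 0.41 and 0.47 higher with KU-0063794 than with rapamycin, in 3 of 3 spleens each. Neither was called (adjusted p = 0.977 each, or 0.379 and 0.410 with the block).

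Sesn1 and Sesn3, whose products restrain mTOR complex 1, fell with KU-0063794 and passed for rapamycin with the block only. Sesn3 read 3.56, 3.46 and 3.96 log2 with KU-0063794 and 4.39, 3.61 and 4.16 with rapamycin, against 4.88, 4.43 and 5.03 with DMSO. It fell by 1.12 with KU-0063794 (adjusted p = 0.0344), and its rapamycin fold change of -0.73 passed with the block only (adjusted p = 0.137, or 0.0143). The KU-0063794 call was lost without DMSO replicate 1 (0.133) or 3 (0.102), rapamycin replicate 3 (0.0575), or KU-0063794 replicate 1 (0.118), 2 (0.127) or 3 (0.0684). Sesn1 fell by 0.67 with KU-0063794 (adjusted p = 0.0493), a call lost without any 1 of the 9 arrays (adjusted p 0.0595 to 0.143), and had -0.57 with rapamycin (adjusted p = 0.0823, or 0.0145 with the block), while 1 of 4 Sesn1 probe sets had the opposite sign. Klf2, a FOXO1-dependent regulator of lymphocyte exit from tissue, had 0.35 with KU-0063794 and -0.12 with rapamycin, and Il7r, the interleukin 7 receptor gene, had -0.06 and -0.18. Cdkn1b, the p27 cell cycle inhibitor gene, had 0.18 and 0.33. None of these 3 was called in either fit.

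**Figure D4:**
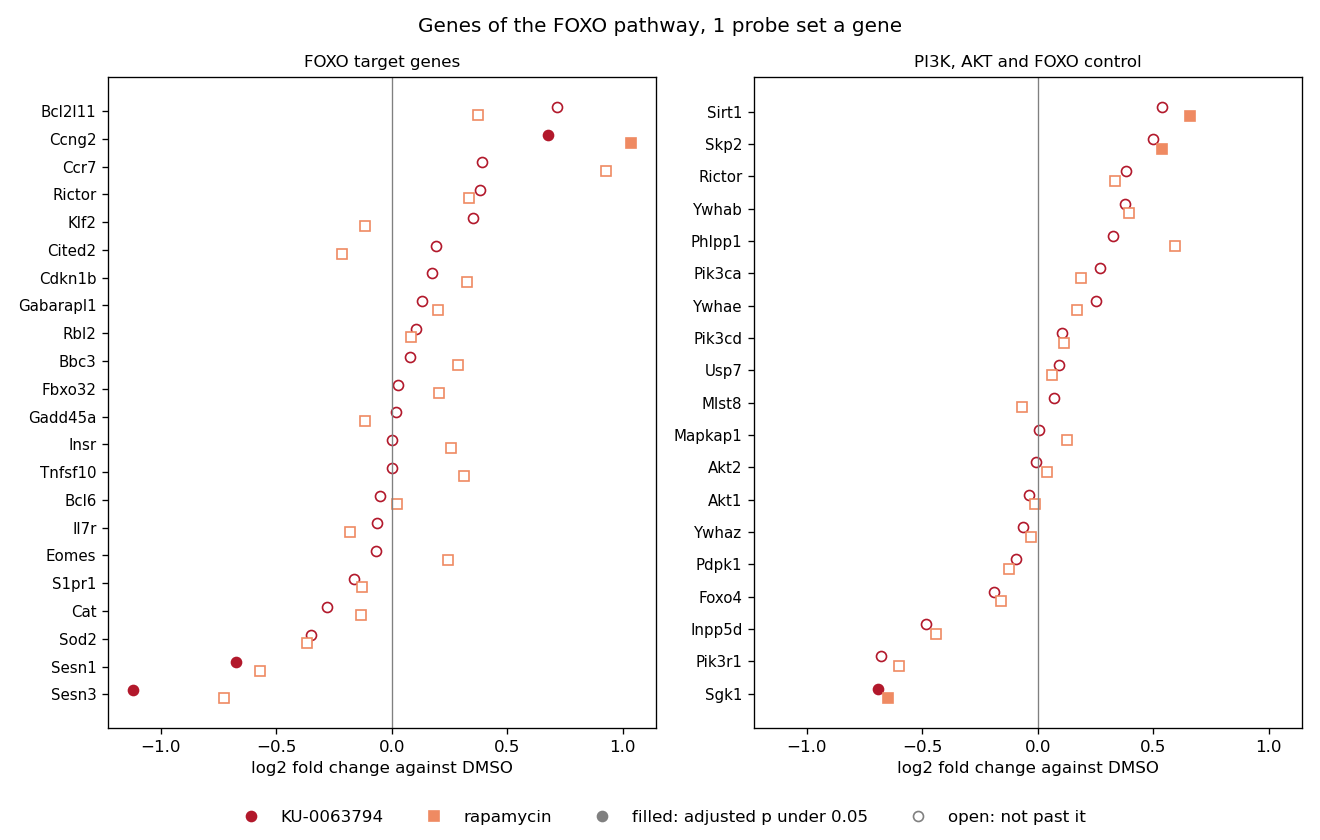
Log2 fold change against DMSO for FOXO target genes (left) and genes that control FOXO (right), with KU-0063794 as circles and rapamycin as squares, 1 probe set a gene. Filled symbols passed at an adjusted p under 0.05 without a block. Ccng2 and Sgk1 are filled for each drug, Sesn1 and Sesn3 for KU-0063794 only, and Sirt1 and Skp2 for rapamycin only.

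Among 19 tested genes of PI3K, AKT and FOXO control, 1 fell with KU-0063794 (5.26% called, against 3.34% of all genes), and 2 rose and 1 fell with rapamycin (15.8%, against 3.71%). With the block 3 rose and 3 fell with KU-0063794 (31.6%, against 10.6% of all genes), and 4 rose and 3 fell with rapamycin (36.8%, against 10.1%). The list median was 0.07 for KU-0063794 (all genes 0.01) and 0.06 for rapamycin (all genes -0.00). Sgk1, a kinase that depends on mTOR complex 2 and phosphorylates FOXO, read 4.99, 5.09 and 4.81 log2 with KU-0063794 and 5.12, 4.99 and 4.90 with rapamycin, against 5.87, 5.74 and 5.35 with DMSO. It fell by 0.69 and 0.65 (adjusted p = 0.0332 and 0.0398), and each call was kept without DMSO replicate 3 and lost without any other array (adjusted p up to 0.126 and 0.138). Sirt1, a deacetylase that acts on FOXO proteins, rose by 0.66 with rapamycin (adjusted p = 0.0273) and had 0.54 with KU-0063794 (0.0572, or 0.0166 with the block). Its rapamycin call was lost without DMSO replicate 1 (0.0982), 2 (0.0596) or 3 (0.0731) and without rapamycin replicate 1 (0.0771) or 2 (0.0799). Skp2, a ubiquitin ligase subunit that marks FOXO1 for degradation, rose by 0.54 with rapamycin (adjusted p = 0.0412, kept without DMSO replicate 3 and lost without any other array, up to 0.127) and had 0.50 with KU-0063794 (0.0558, or 0.0222 with the block). Of 6 Skp2 probe sets, 4 had a positive sign with KU-0063794 and 5 with rapamycin. Rictor, the defining subunit of mTOR complex 2, had 0.38 with KU-0063794 and 0.33 with rapamycin and was not called in either fit. Foxo4 and Irs1 lay below background, and Irs1 also below the filter.

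Other quiescence genes were as mixed: of 22 tested, 1 fell with KU-0063794 (4.55%, near the 3.34% of all genes), and 2 rose with rapamycin (9.09%, against 3.71%). With the block 2 rose and 4 fell with KU-0063794 (27.3%, against 10.6% of all genes), and 2 rose and 2 fell with rapamycin (18.2%, against 10.1%). The list median was 0.01 for KU-0063794 (all genes 0.01) and -0.02 for rapamycin (all genes -0.00). Pdcd4, a translation inhibitor, rose by 0.82 with rapamycin (adjusted p = 0.0167) and had 0.41 with KU-0063794 (0.162, or 0.0225 with the block). Its rapamycin call was lost without DMSO replicate 1 (0.0673) or rapamycin replicate 1 (0.0654) or 3 (0.0672). Zfp36l1, which directs decay of messages with AU-rich elements, rose by 0.69 with rapamycin (adjusted p = 0.0310, kept without DMSO replicate 2 and lost without any other array, up to 0.100) and had 0.45 with KU-0063794 (0.128, or 0.0470 with the block, with its 2 probe sets of opposite sign). Vsir, the gene of the checkpoint receptor VISTA, fell by 0.84 with KU-0063794 (adjusted p = 0.0229) and had -0.54 with rapamycin (0.0972, or 0.0392 with the block). Its KU-0063794 call was lost without DMSO replicate 1 (0.0974) or 3 (0.0655) or KU-0063794 replicate 1 (0.0890), 2 (0.0779) or 3 (0.0725). The Tob1 and Btg1 relatives Tob2 (0.03 with KU-0063794 and 0.11 with rapamycin) and Btg2 (-0.42 and -0.30) were not called in either fit, and of 5 Tob2 probe sets only 2 with KU-0063794 and 1 with rapamycin had a positive sign.

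Genes of the CCR4-NOT deadenylase and poly(A) binding, the machinery that TOB1 and BTG1 engage, were not called: 0 of 14 in limma for each drug, where 3.34% of all genes were called with KU-0063794 and 3.71% with rapamycin. An unadjusted p under 0.05 was found for 3 of the 14 with KU-0063794 and 0 with rapamycin, and for 16.3% and 15.8% of all probe sets tested. With the block 2 were higher with KU-0063794 (14.3%, against 10.6% of all genes) and none with rapamycin (10.1% of all genes). The list median was 0.07 for KU-0063794 (all genes 0.01) and 0.11 for rapamycin (all genes -0.00). Cnot7, the deadenylase subunit that the family binds, had -0.05 with KU-0063794 and -0.12 with rapamycin. In the MondoA and thioredoxin list, 0 of 9 were called in limma with KU-0063794 (3.34% of all genes; unadjusted p under 0.05 for 3, as for 16.3% of all probe sets), and 1 fell with rapamycin (11.1%, against 3.71%). With the block 3 were lower with each drug (33.3%, against 10.6% of all genes for KU-0063794 and 10.1% for rapamycin). The list median was -0.02 for KU-0063794 (all genes 0.01) and -0.03 for rapamycin (all genes -0.00). The gene called was Mlx, the DNA-binding partner of MondoA: it read 3.35, 3.25 and 3.13 log2 with KU-0063794 and 3.01, 3.01 and 2.73 with rapamycin, against 3.72, 3.57 and 3.72 with DMSO. Neither drug group overlapped with DMSO. It fell by 0.76 with rapamycin (adjusted p = 0.0105), a call that held without any single array, and had -0.43 with KU-0063794 (adjusted p = 0.0642, or 0.0265 with the block). The MondoA gene Mlxip (0.14 and 0.23) was not called, and Arrdc4, a MondoA target related to Txnip, was below background.

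The genes whose log2 signals most resembled a member over the 9 arrays were found among 8445 genes above background, by Pearson's r. They describe these arrays, which share spleens and treatments. For Klhl24 they were Rb1 (r = 0.96), Naca (0.95) and Ly75 (0.94). For Tob1 they were Rhof (0.98), Emc2 (0.98) and Timm8b (0.97), for Btg1 Rp9 (0.99), Lmna (0.99) and Fdps (0.98), and for Foxo3 Ube2j2 (0.99), Rnpep (0.98) and Sesn2 (0.97). Foxo1 was closest to Tpd52 (0.97), Chmp5 (0.97) and Bmerb1 (0.97), Irs2 to Zfp280d (0.99), Ctla2a (0.95) and Slf1 (0.94), Txnip to Rmnd5b (0.94), AW112010 (0.94) and Nfe2l2 (0.92), and Pik3ip1 to Lage3 (0.95), Zc3h14 (0.92) and Stau1 (0.90). No gene was the closest of more than 1 member.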

How the data were processed

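RNA of 9 cultures was measured on 1 Affymetrix mouse array each. Affymetrix Expression Console 1.3.1 is named in the submitters' processing notes. How it summarised and normalized the arrays is not given in the sources used here. Deposited values are log2 signals, rising by 1.04 per doubling of the nominal amount of the hybridisation controls, and were used as deposited. Values are stepped: 70.1% of tested probe sets held exactly equal deposited values (no rounding, no tolerance) on at least 2 arrays, so small differences near background carry little. The number of arrays limits the precision.

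Of 45101 probe sets, 64 were controls, 34945 carried 1 gene symbol, 932 several and 9160 were not listed. Probe sets with 1 symbol and a mean above the 40th percentile (0.31 log2) were tested, 22947 in all. limma 3.58.1 in R 4.3.3 was fitted over the 3 groups without a spleen term, with two-sided moderated tests and Benjamini-Hochberg adjustment. The same model with a fixed spleen block stands beside it where it changes a call. Pairing follows the labels, since cultures with the same number came from 1 spleen. Deviations from group means correlated between such arrays in 9 of 9 pairings (r 0.34 to 0.49). In 18 pairings with other numbers r was -0.34 to -0.08. Centring on group means makes the latter negative on average where the former are positive, so they add no separate support. For lists, the probe set with the highest mean stood for a gene. Named list genes were those past the threshold, up to 4 a list and comparison, and a fixed panel; the 3 genes most like each member were taken by r. A list gene without a probe set of its own is not reported here. The members and lists were chosen with earlier results of these data known. The procedure was tested on simulated data with independent arrays and no spleen effect, so that test does not cover the pairing. Alternatives were a fixed or random block, 1 probe set a gene, other filters, quantile normalization, median centring, 2-group fits, a trended robust prior, and arrays or spleens left out. Arrays and spleens were left out in the fit without a block only.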

Additional observations from a re-analysis of the deposited data

How the results depend on the processing

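The count of called member probe sets was 2 for rapamycin against DMSO and 1 for KU-0063794 against DMSO. With the spleen as a fixed replicate block it was 4 and 5, and as a random block 2 and 4. With only the 2 groups compared it was 0 and 0 (Klhl24 adjusted p = 0.0525 and Tob1 0.0722 for rapamycin, Tob1 0.0847 for KU-0063794), where each fit had 6 arrays. With a trended robust prior it was 2 and 2, the added one being Btg1 1442018_at, below background. Of the list genes called with the fixed block and not without it, 10 of 17 for KU-0063794 and 9 of 12 for rapamycin were also called with the random block; of these genes, Pdcd4 (adjusted p = 0.0552) and Zfp36l1 (0.0541) with KU-0063794 were among those that were not. Leaving out 1 array gave 0 to 2 and 0 to 1. Leaving out a whole spleen gave 0 for each, with at most 1 and 4 calls over the entire array. Over the entire array 698 and 619 probe sets were called, against 2009 and 2094 with the fixed block, 1437 and 1476 with the random block, 26 and 12 with the 2 groups compared, and 173 to 553 and 42 to 604 with 1 array left out. The member counts were 2 and 1 with 1 probe set a gene, either other filter, quantile normalization and median centring. Between the drugs the count was 0 in all 21 alternatives and in limma without them. Over the 1035 values of member probe sets under these alternatives, 25 lost a call, 10 gained one, none reversed a called direction, and 58 changed sign without a call in either fit. Low signal limits Klhl24, whose DMSO values lay at 1.23 to 1.52 log2 against a background of 1.22.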

Other observations

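For some members spleen means spanned as much as the treatment differences. Averaged over its 3 cultures, Btg1 (1426083_a_at) read 8.16 log2 in spleen 1, 7.48 in spleen 2 and 7.86 in spleen 3, a range of 0.68, beside a mean difference of -0.70 for KU-0063794 and -0.53 for rapamycin. Spleen 1 was the highest and spleen 2 the lowest under every treatment. Foxo1 (1416981_at) was likewise highest in spleen 1 and lowest in spleen 3 under every treatment, with a range of 0.47 between spleen means. Pik3ip1 (1428332_at) was highest in spleen 3 under every treatment, with a range of 0.37. For Foxo3 (1434831_a_at) the spleen means spanned only 0.12, less than the difference of each drug from DMSO.

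Several genes of the lists passed with the spleen as a block and not without it; these were chosen for mention after their values were seen. The block is the fixed one. As a random block it lost Slc2a1 (adjusted p = 0.0814), Bcl2l11 (0.194) and Mxd4 (0.376) for KU-0063794. For rapamycin the random block lost Pik3r1 (0.0687) and Mxi1 (0.199). The glucose transporter genes Slc2a3 (-1.25 with KU-0063794 and -1.32 with rapamycin, adjusted p = 0.00554 and 0.00468 with the block) and Slc2a1 (-0.58 and -0.71, 0.00708 and 0.00389) were lower with each drug. Without the block their adjusted p was 0.104 and 0.0847 for Slc2a3, and 0.247 and 0.160 for Slc2a1. Of the signalling genes, Pik3r1, the regulatory subunit of PI3K, had -0.68 and -0.60 (0.00461 and 0.00723 with the block, 0.162 and 0.224 without), and Inpp5d, the SHIP1 phosphatase that removes the PI3K product, had -0.49 and -0.44 (0.0125 and 0.0195, against 0.109 and 0.142). The 14-3-3 gene Ywhab, whose product binds phosphorylated FOXO, had 0.38 and 0.39 (0.0199 and 0.0184, against 0.0711 and 0.0596). Bcl2l11, the gene of the death protein BIM, had 0.72 with KU-0063794 (0.00965 with the block, 0.423 without), and 4 of its 5 probe sets had this sign. Ccr7, whose receptor guides cells to lymph nodes, had 0.93 with rapamycin (0.00674, against 0.0909). Sod2, of the FOXO target list, had -0.35 and -0.37 (0.0244 and 0.0212, against 0.085 and 0.0675), and 3 of its 4 probe sets had this sign. Of the quiescence list, Mxi1 had -0.53 and -0.33 (0.00813 and 0.0443, against 0.159 and 0.411). With KU-0063794, Ypel5 had -0.66 (0.0132, against 0.0565) and Mxd4 -0.35 (0.0298, against 0.611).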
